A study of Homo sapiens with 9 samples.

Results

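The genes described here encode 44 components of B-cell receptor signalling, out of 57500 genes counted in each library. The members were given as a list of gene symbols and matched to Ensembl identifiers through GENCODE release 29, and each of the 44 matched exactly 1 gene. They were divided by role into 4 Src-family kinases, 12 kinases and adaptors of the proximal signalling complex, 3 PI3-kinase genes, 5 genes of the protein kinase C, RAS and BCL10-MALT1 branches, 3 co-receptor and CD45 genes, 8 calcium and NFAT genes and 9 inhibitors. All 44 passed the filter on low counts, and 38 stood at 10 CPM (counts scaled to a common library total) or more in every library.

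The B-cell receptor has no kinase activity of its own. When it binds antigen, Src-family kinases, mainly LYN, phosphorylate the immunoreceptor motifs of CD79A and CD79B, which recruit the kinase SYK. SYK and BTK then activate phospholipase C gamma 2 on the scaffold BLNK. The second messengers that this phospholipase makes open calcium stores and switch on protein kinase C and RAS, which lead to NFAT, NF-kB and ERK. Phosphatases such as SHP-1 and SHIP-1, the CSK kinase and CBL-type ubiquitin ligases oppose these steps, and LYN acts on both sides.

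The cells were BJAB, an established line of human B lymphocytes whose genotype label reads as a Burkitt tumour. The gene TNFRSF13B encodes TACI, a TNF-receptor family member for the cytokines BAFF and APRIL. Human B cells make TACI in a short and a long isoform. The 9 libraries form groups of 3: BJAB with introduced short isoform (TACI short), BJAB with introduced long isoform (TACI long) and parental BJAB (control). All cells were unstimulated, the titles speak of stable transfection and the design text of transduction. No library of cells given an empty vector was analysed here, the labels name neither the promoter that drives TACI nor whether each line is 1 clone, and no label ties replicates to separate cultures. The p-values then reflect library-to-library spread that may be technical.

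Library totals ran from 40322136 to 50079203 counts. TNFRSF13B, the introduced gene, stood at 2964, 2965 and 2655 CPM in TACI short and 691, 704 and 738 CPM in TACI long, against 28.8, 15.2 and 14.6 CPM in controls. Counts per gene do not separate the isoforms, so isoform and amount of TACI RNA cannot be told apart in the comparison of both lines. B-cell markers were high in every library. PAX5, the B-lineage transcription factor, stood at 422, 419 and 384 CPM in TACI short and 352, 388 and 387 CPM in TACI long, against 338, 372 and 359 CPM in controls. MS4A1, which encodes CD20, stood at 334, 323 and 335 CPM in TACI short and 293, 296 and 283 CPM in TACI long, against 696, 694 and 673 CPM in controls. TACI short replicates 2 and 3 stood apart. They had 32882 and 32209 genes with a count, against 24307 to 25938 in the other 7 libraries. Their 12 myeloid markers summed to 129 and 126 CPM, against 28.96 CPM in TACI short replicate 1, 15.7 to 29.9 CPM in TACI long and 11.9 to 22.5 CPM in controls. S100A8 had no count in any library, and FCER1G reached 26.4 CPM. Of the fibroblast genes, COL1A1 and COL1A2 were also higher in these libraries. COL1A1 stood at 10.99 and 10.2 CPM against 3.24 CPM or less elsewhere, and COL1A2 at 3.99 and 4.11 CPM against 1.44 CPM or less. DCN was not higher, at 2.01 and 2.44 CPM against 2.43 CPM in TACI short replicate 1 and 2.76 to 3.02 CPM in controls. The 7 epithelial and fibroblast markers, mostly EPCAM, summed to 83.1 to 91.0 CPM in TACI short, 114 to 120.3 CPM in TACI long and 101 to 103 CPM in controls. T and NK cell markers summed to at most 17.0 CPM in any library. In bulk RNA, fewer cells of a type and less RNA per cell cannot be told apart.

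The receptor-proximal genes moved in both directions in each line, with different genes leading. In TACI short cells, the adaptor LAT2 rose 2.94-fold, the PI3-kinase catalytic subunit PIK3CD 2.30-fold, the RAS exchange factor RASGRP1 2.22-fold, the Src-family kinase FYN 1.98-fold and the transcription factor NFATC2 1.97-fold. In TACI long cells, RASGRP1 fell 3.85-fold and PTPN6, which encodes the phosphatase SHP-1, fell 2.83-fold. At an edgeR quasi-likelihood adjusted p under 0.05, 26 of 44 members were higher and 13 lower in TACI short than in controls, 39 in all, where 62.6% of 16672 genes tested passed (31.5% higher and 31.1% lower). In TACI long, 16 were higher and 17 lower, 33 in all, where 51.1% of genes tested passed (25.2% higher and 25.9% lower). The CPM of 40 members did not overlap between TACI short and control libraries (background 66.4%), and that of 34 did not overlap between TACI long and control libraries (background 60.7%). The median log2 fold change of the members was 0.22 in TACI short and -0.02 in TACI long, beside 0.03 and -0.00287 over all genes tested in the same comparisons. The members are expressed well above most genes, with a median average log2 CPM of 6.78 against 3.56, and small changes pass more easily at high counts. Most changes were small: 5 called members (BANK1, PRKCB, LAT2, PIK3CD and RASGRP1) had an absolute log2 fold change of 1 or more in TACI short (background 14.4%) and 2 in TACI long (background 9.12%). Of these, PRKCB in TACI short kept its call in only 7 of 18 alternative settings. CPM values below are counts over the library total, while fold changes carry TMM scaling, under which the median gene lies 0.13 lower on the log2 scale in TACI short than the library total alone would put it. The counts of members without overlap rest on CPM without TMM. They include MALT1, which lay above every control in TACI short at a TMM-scaled log2 fold change of -0.06. With library size alone, 29 members were higher and 11 lower in TACI short than in controls.

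**Figure D1:**
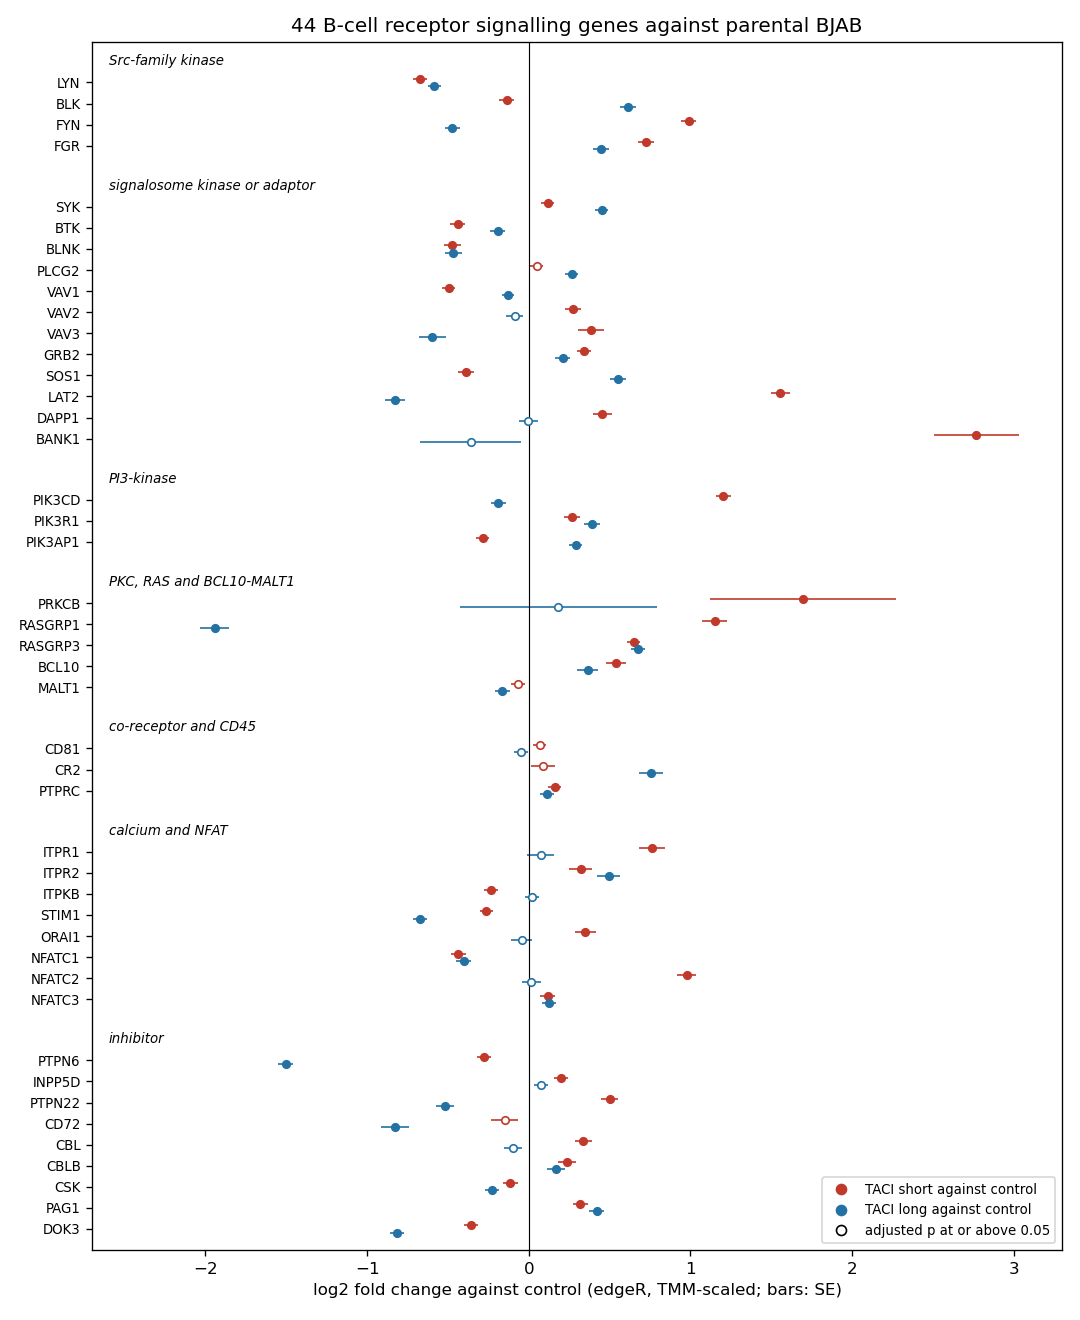
Log2 fold change against control (horizontal axis, edgeR with TMM scaling; bars, SE) of the 44 members, grouped by role, for TACI short (red) and TACI long (blue); open symbols did not pass adjusted p under 0.05. RASGRP1 lies at 1.15 in TACI short and -1.94 in TACI long. Among members that passed in both lines, LAT2, FYN, PIK3CD, VAV3, PTPN22, BLK, SOS1 and PIK3AP1 also lie on opposite sides of 0. Some members with an open symbol do so too, such as BANK1 and CBL.

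The 4 Src-family kinases start the cascade, and all 4 passed the test in both lines, where 62.6% of all genes tested passed in TACI short and 51.1% in TACI long. LYN, which both starts signalling and recruits inhibitory phosphatases, stood at 94.9, 99.7 and 102 CPM in TACI short and 97.96, 95.9 and 94.5 CPM in TACI long, against 143, 146 and 144 CPM in controls. All libraries of both lines lay below every control, by 1.59-fold in TACI short and 1.499-fold in TACI long (edgeR adjusted p = 1.47e-12 and 2.83e-11). LYN did not pass the test between the lines (log2 fold change -0.09 ± 0.04, edgeR adjusted p = 0.0579).

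FYN, a kinase better known from T cells, had 198, 194 and 187 CPM in TACI short and 64.1, 65.6 and 62.3 CPM in TACI long, against 92.2, 85.4 and 89.2 CPM in controls. It was the highest in all TACI short libraries and the lowest in all TACI long libraries, 1.98-fold above and 1.39-fold below control, and 2.76-fold higher in TACI short than in TACI long (edgeR adjusted p = 6.34e-18). BLK, a B-lineage kinase, had 106, 98.6 and 98.5 CPM in TACI short and 154, 154 and 158 CPM in TACI long, against 104, 99.6 and 102 CPM in controls. Only the TACI long libraries stood clear of the rest, 1.53-fold above control. In TACI short the log2 fold change was -0.14 ± 0.05 with CPM that overlapped the controls, and the call was lost without control replicate 1, without TACI short replicate 2 or 3 and without both (edgeR adjusted p up to 0.648). FGR, which myeloid cells also express, had 48.4, 54.0 and 50.02 CPM in TACI short and 38.0, 40.8 and 36.0 CPM in TACI long, against 28.2, 27.9 and 28.1 CPM in controls. FGR rose 1.65-fold in TACI short and 1.36-fold in TACI long. Without TACI short replicates 2 and 3 its log2 fold change in TACI short was 0.70 instead of 0.73. The part of myeloid RNA in its rise was not tested.

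In the proximal complex of SYK, BTK, BLNK and their partners, 7 of 12 genes rose and 4 fell in TACI short (median log2 fold change 0.19), and 4 rose and 5 fell in TACI long (median -0.11), beside the 62.6% and 51.1% of all genes tested that passed in either direction. SYK, which docks on phosphorylated CD79A and CD79B, stood at 345, 340.4 and 331 CPM in TACI short and 382, 399 and 389 CPM in TACI long, against 287, 284 and 286 CPM in controls. Its level was highest in TACI long, 1.37-fold above control, and its call in TACI short (log2 fold change 0.12 ± 0.04) held in only 12 of 19 alternative settings. That call was lost without any 1 control, without TACI long replicate 1 or 3 and without TACI short replicate 1 (edgeR adjusted p up to 0.199). BTK, the TEC-family kinase whose loss causes agammaglobulinaemia, had 117, 113 and 112 CPM in TACI short and 122, 127 and 121 CPM in TACI long, against 145, 144 and 134 CPM in controls. It was lower than every control in both lines, 1.35-fold in TACI short and 1.14-fold in TACI long. The scaffold BLNK fell 1.39-fold and 1.38-fold in the same order, with 30.0, 28.3 and 27.0 CPM in TACI short and 25.5, 26.7 and 26.2 CPM in TACI long, against 35.3, 35.5 and 37.5 CPM in controls. Of its exon bases, 9.71% also lie in an exon of ZNF518A on the other strand.

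PLCG2, the phospholipase that makes the calcium-releasing messenger, rose 1.20-fold in TACI long, with 674, 675 and 648 CPM in TACI short and 685, 721 and 711 CPM in TACI long, against 584, 594 and 587 CPM in controls. In TACI short its log2 fold change was 0.05 ± 0.04 and did not pass (edgeR adjusted p = 0.296), although its CPM lay above every control. With library size alone the same test gave 0.18 (adjusted p = 4.14e-05).

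The adaptor LAT2, a lipid-raft protein that SYK phosphorylates, had the widest spread between the lines among well-expressed members of this group. LAT2 (ENSG00000086730, hg38 chromosome 7, 74199652 to 74229834, plus strand) stood at 50.04, 58.4 and 57.9 CPM in TACI short and 10.1, 10.1 and 8.92 CPM in TACI long, against 16.5, 18.3 and 17.0 CPM in controls. No library of one group reached the range of another: it rose 2.94-fold in TACI short and fell 1.77-fold in TACI long, a 5.22-fold difference between the lines (edgeR adjusted p = 1.64e-19). LAT2 is expressed in myeloid cells as well. Without TACI short replicates 2 and 3 its log2 fold change in TACI short was 1.45 instead of 1.56. The part of myeloid RNA in the rise of LAT2 was not tested.

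The RAS exchange factor SOS1 ran the other way, with 82.5, 79.2 and 80.6 CPM in TACI short and 135, 146 and 144 CPM in TACI long, against 89.4, 104 and 96.5 CPM in controls. It was 1.46-fold higher than control in TACI long and 1.31-fold lower in TACI short, while its partner adaptor GRB2 was higher in both lines, 1.27-fold in TACI short and 1.16-fold in TACI long. GRB2 had 821, 787 and 788 CPM in TACI short and 660.4, 658 and 678 CPM in TACI long, against 580.1, 571 and 577 CPM in controls. The VAV exchange factors split. VAV1, the haematopoietic form, had 157, 158 and 159 CPM in TACI short and 188, 188 and 183 CPM in TACI long, against 206, 202 and 202 CPM in controls, which was 1.41-fold lower in TACI short. Its small fall in TACI long (log2 fold change -0.13 ± 0.04) lost its call without control replicate 1 or 3 and without any single TACI long library (edgeR adjusted p between 0.0509 and 0.101). VAV2 rose 1.21-fold in TACI short, with 40.6, 40.1 and 38.9 CPM in TACI short and 28.4, 27.2 and 29.6 CPM in TACI long, against 30.1, 29.8 and 30.6 CPM in controls, and in TACI long it was at a log2 fold change of -0.09 ± 0.05 without passing.

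VAV3 had 26.8, 37.0 and 34.7 CPM in TACI short and 14.9, 15.9 and 14.6 CPM in TACI long, against 21.8, 23.8 and 23.0 CPM in controls. It fell 1.51-fold in TACI long, where no library reached the control range. In TACI short, replicate 1 was nearest to the controls, and without replicates 2 and 3 the log2 fold change was 0.14 instead of 0.39 and no longer passed (edgeR adjusted p = 0.0960). The PI3-kinase-dependent adaptor DAPP1 rose 1.37-fold in TACI short, with 31.3, 28.8 and 30.1 CPM in TACI short and 19.6, 20.5 and 19.8 CPM in TACI long, against 19.5, 19.5 and 21.1 CPM in controls. The scaffold BANK1, which links LYN to calcium release, was nearly silent in controls, with 44 counts over 3 libraries. It had 328 counts in TACI short and 33 in TACI long. The ratio of TACI short to control was 7.53 (95% exact interval 5.49 to 10.6, counting error only). TACI short replicate 1 alone had 2.07 CPM, against at most 0.370 CPM in a control library.

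PI3-kinase makes the membrane lipid that recruits BTK and other kinases. PIK3CD, the p110 delta catalytic subunit of lymphocytes (ENSG00000171608, hg38 chromosome 1, 9651732 to 9729114, plus strand), stood at 243, 246 and 226 CPM in TACI short and 78.2, 84.0 and 86.9 CPM in TACI long, against 96.3, 92.5 and 95.3 CPM in controls. Every TACI short library exceeded every other library, 2.30-fold above control, and the TACI long libraries lay just below the controls, 1.14-fold lower. The regulatory subunit gene PIK3R1 rose 1.21-fold in TACI short and 1.31-fold in TACI long, with 88.0, 90.7 and 87.0 CPM in TACI short and 84.0, 87.9 and 92.5 CPM in TACI long, against 61.7, 72.1 and 68.0 CPM in controls. The adaptor PIK3AP1 (BCAP) had 201, 198 and 196 CPM in TACI short and 266, 271 and 273 CPM in TACI long, against 215, 227 and 221 CPM in controls: it was 1.22-fold lower in TACI short and 1.22-fold higher in TACI long. The edgeR adjusted p of these 6 results was 0.00203 or lower.

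Diacylglycerol, the other product of phospholipase C, drives the RASGRP exchange factors and protein kinase C beta. RASGRP1 (ENSG00000172575, hg38 chromosome 15, 38488103 to 38565575, minus strand), an activator of RAS best studied in T cells, stood at 24.6, 23.0 and 23.5 CPM in TACI short and 2.48, 2.28 and 2.85 CPM in TACI long, against 9.96, 9.99 and 9.39 CPM in controls. The groups were fully separate, with TACI short 2.22-fold above and TACI long 3.85-fold below control, and the lines differed 8.54-fold (edgeR adjusted p = 8.09e-19). RASGRP3, the form more typical of B cells, had 291, 293 and 286 CPM in TACI short and 266, 275 and 270.0 CPM in TACI long, against 169, 177 and 161 CPM in controls. It rose in both lines, 1.57-fold in TACI short and 1.60-fold in TACI long, and was by far the more abundant: 93.6 ± 1.42, 82.5 ± 2.72 and 53.2 ± 2.89 TPM (level per exon length) in TACI short, TACI long and controls, against 14.0 ± 0.533, 1.41 ± 0.162 and 5.61 ± 0.236 TPM of RASGRP1 (SD, n = 3 libraries each).

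PRKCB, the protein kinase C of the receptor pathway, was close to silent, with 0.698, 3.72 and 3.27 CPM in TACI short and 0.827, 0.833 and 0.765 CPM in TACI long, against 0.522, 0.850 and 0.772 CPM in controls. Its call in TACI short rested on replicates 2 and 3, the libraries with more myeloid and collagen RNA, whose part in the result was not tested. Without them the log2 fold change was -0.12 instead of 1.70 (edgeR adjusted p = 0.803 instead of 0.0389). The PRKCB call held in only 7 of 18 alternative settings. It was also lost without any 1 control, any 1 TACI long library, or TACI short replicate 2 or 3 (edgeR adjusted p up to 0.123). BCL10 and MALT1 relay the signal to NF-kB. BCL10 rose 1.45-fold in TACI short and 1.29-fold in TACI long, with 24.0, 24.2 and 24.4 CPM in TACI short and 20.6, 18.6 and 19.6 CPM in TACI long, against 15.8, 14.0 and 15.9 CPM in controls. MALT1 fell by 0.16 on the log2 scale in TACI long, without passing when TACI long replicate 1 was left out (edgeR adjusted p = 0.0765), and lay at -0.06 ± 0.04 in TACI short. MALT1 had 152, 148 and 149 CPM in TACI short and 121, 134 and 128 CPM in TACI long, against 139, 147 and 143 CPM in controls.

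Among the co-receptor genes and CD45, changes were small in TACI short. CR2 (CD21), the complement receptor that lowers the threshold of the receptor, had 9.65, 9.65 and 9.92 CPM in TACI short and 14.3, 13.5 and 14.7 CPM in TACI long, against 8.57, 7.90 and 8.68 CPM in controls. It rose 1.69-fold in TACI long (edgeR adjusted p = 8.81e-09) and lay at a log2 fold change of 0.09 ± 0.08 in TACI short. The tetraspanin CD81, a part of the co-receptor complex, passed in neither line against control (log2 fold changes 0.07 ± 0.04 in TACI short and -0.05 ± 0.04 in TACI long). CD81 had 593, 599 and 590.2 CPM in TACI short and 509.6, 496 and 499.7 CPM in TACI long, against 534, 504 and 518 CPM in controls. PTPRC (CD45), the phosphatase that keeps Src-family kinases active, had 839, 839 and 833 CPM in TACI short and 717, 771 and 734 CPM in TACI long, against 658, 708 and 690.1 CPM in controls. It rose by 0.16 on the log2 scale in TACI short and by 0.11 in TACI long. The call in TACI long was lost without any 1 of the 6 libraries of that comparison, and that in TACI short without control replicate 1.

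All 8 calcium and NFAT genes passed in TACI short, 5 higher and 3 lower, against 2 higher and 2 lower in TACI long (medians 0.22 and 0.02). Over all genes tested 62.6% passed in TACI short and 51.1% in TACI long, and the 4 of 8 in TACI long are close to that share. STIM1, the calcium sensor of the endoplasmic reticulum, had 123, 122 and 118 CPM in TACI short and 82.4, 84.8 and 81.7 CPM in TACI long, against 134, 134 and 129 CPM in controls. It fell 1.60-fold in TACI long and 1.20-fold in TACI short, with no overlap between any of the groups. ORAI1, the channel that STIM1 opens, rose 1.28-fold in TACI short, with 23.0, 21.0 and 20.7 CPM in TACI short and 14.9, 14.4 and 15.7 CPM in TACI long, against 15.7, 15.2 and 15.5 CPM in controls, and did not pass in TACI long (log2 fold change -0.04 ± 0.07). Of the receptors that release stored calcium, ITPR1 rose 1.70-fold in TACI short, with 22.7, 24.9 and 20.6 CPM in TACI short and 12.6, 13.6 and 12.5 CPM in TACI long, against 10.5, 13.7 and 12.7 CPM in controls. ITPR2 was 1.25-fold higher in TACI short and 1.41-fold higher in TACI long, with 406, 409 and 379.9 CPM in TACI short and 388, 427 and 416 CPM in TACI long, against 255, 323 and 298 CPM in controls. Control replicate 1 was the lowest of its group for both receptors. The rise of ITPR2 in TACI short did not pass without TACI short replicates 2 and 3 (log2 fold change 0.39, edgeR adjusted p = 0.0806). ITPKB, the kinase that removes the calcium-releasing messenger, fell 1.18-fold in TACI short, with 204, 204 and 189 CPM in TACI short and 207, 225 and 219.6 CPM in TACI long, against 209, 216 and 218 CPM in controls.

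The NFAT factors, which calcium moves into the nucleus, diverged. NFATC2 had 60.6, 63.3 and 55.2 CPM in TACI short and 25.7, 29.9 and 28.4 CPM in TACI long, against 26.2, 29.4 and 27.6 CPM in controls. Every TACI short library was above every other library, 1.97-fold above control (edgeR adjusted p = 2.71e-12), while TACI long overlapped the controls. NFATC1 was lower in both lines, 1.35-fold in TACI short and 1.32-fold in TACI long, with 88.0, 90.9 and 80.5 CPM in TACI short and 78.4, 82.3 and 81.5 CPM in TACI long, against 108, 105 and 108 CPM in controls. NFATC3 rose by 0.12 and 0.13 on the log2 scale in TACI short and TACI long. It lost its call in TACI short without any single library of the series except TACI short replicate 3, and in TACI long without control replicate 1 or 3 or without replicate 2 or 3 of TACI long. Of its exon bases, 36.3% lie in exons of other genes of the annotation.

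**Figure D2:**
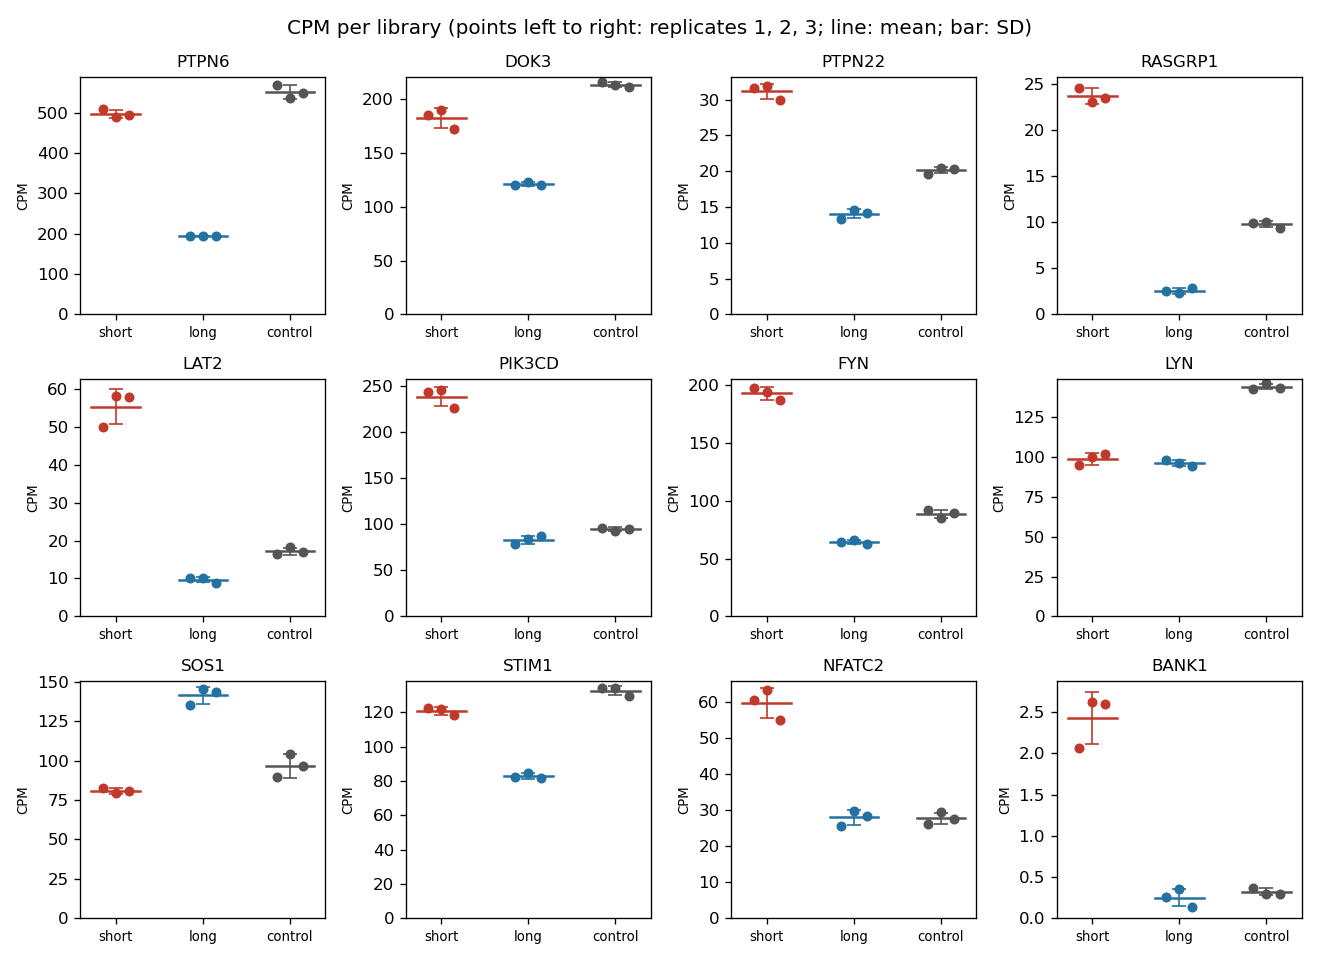
CPM (vertical axes, from 0) of 12 members in each library of TACI short, TACI long and control, with the group mean (line) and SD (bar, n = 3). PTPN6 stands at 194 to 195 CPM in TACI long, below 490.3 CPM or more in all other libraries, and RASGRP1, LAT2 and FYN are highest in TACI short and lowest in TACI long.

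Of the 9 inhibitors, 5 rose and 3 fell in TACI short (median log2 fold change 0.20), and 2 rose and 5 fell in TACI long (median -0.23), beside 62.6% and 51.1% of all genes tested. The 35 activating and calcium members had 21 higher and 10 lower in TACI short and 14 higher and 12 lower in TACI long, with medians of 0.27 and 0.02. PTPN6 (ENSG00000111679, hg38 chromosome 12, 6946468 to 6961316, plus strand) encodes SHP-1, which dephosphorylates receptor-proximal proteins when inhibitory co-receptors recruit it. It stood at 509, 490.3 and 494 CPM in TACI short and 194, 194 and 195 CPM in TACI long, against 569.7, 536 and 549 CPM in controls. The TACI long libraries lay close together, 2.83-fold below control (edgeR adjusted p = 4.07e-18), while TACI short lay 1.21-fold below control.

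DOK3, an adaptor that recruits SHIP-1, followed the same order with 185, 190.1 and 172 CPM in TACI short and 120.4, 123 and 119.9 CPM in TACI long, against 216, 214 and 211 CPM in controls. It fell 1.76-fold in TACI long and 1.28-fold in TACI short, and no groups overlapped. CD72, a surface receptor that recruits SHP-1, had 10.3, 12.4 and 9.96 CPM in TACI short and 6.24, 6.12 and 6.21 CPM in TACI long, against 11.7, 11.1 and 10.2 CPM in controls. It fell 1.78-fold in TACI long and did not pass in TACI short (log2 fold change -0.15 ± 0.08). Of its exon bases, 19.5% are shared with other genes, mainly TESK1. PTPN22, a phosphatase that restrains Src-family kinases and ZAP70, had 31.6, 31.9 and 30.0 CPM in TACI short and 13.4, 14.6 and 14.1 CPM in TACI long, against 19.7, 20.4 and 20.3 CPM in controls. It rose 1.42-fold in TACI short and fell 1.43-fold in TACI long.

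CSK, the kinase that switches Src-family kinases off, stood at 760.4, 733 and 711 CPM in TACI short and 616, 618 and 628 CPM in TACI long, against 739, 708 and 736 CPM in controls. It was 1.17-fold lower in TACI long. In TACI short its log2 fold change was -0.11 ± 0.04 with TMM scaling and 0.01 with library size alone (edgeR adjusted p = 0.0310 and 0.686), and that call was also lost without control replicate 1 or 3 or TACI short replicate 2 or 3. PAG1, the membrane anchor of CSK, rose 1.25-fold in TACI short and 1.34-fold in TACI long, with 162, 166 and 157 CPM in TACI short and 153, 161 and 160.3 CPM in TACI long, against 109.8, 125 and 120.1 CPM in controls. INPP5D (SHIP-1), which removes the PI3-kinase product, had 237, 247 and 229 CPM in TACI short and 189.6, 208 and 199 CPM in TACI long, against 186, 194 and 186 CPM in controls. It rose 1.15-fold in TACI short and lay at 0.08 ± 0.04 on the log2 scale in TACI long. The ubiquitin ligase genes CBL and CBLB rose 1.26-fold and 1.18-fold in TACI short. CBL had 52.7, 60.4 and 56.8 CPM in TACI short and 34.5, 41.3 and 38.9 CPM in TACI long, against 38.6, 42.5 and 41.7 CPM in controls. In TACI long, CBLB rose by 0.17 on the log2 scale, a call lost without TACI long replicate 1 or either of control replicates 1 and 3 (edgeR adjusted p up to 0.0795), and CBL lay at -0.10 ± 0.06 without passing.

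The lines were also set against each other, with the controls entering only through the shared estimate of spread and the scaling. Between TACI short and TACI long, 23 members were higher and 10 lower in TACI short, 33 of 44, where 68.8% of genes tested passed (35.2% higher and 33.6% lower). The CPM of 38 members did not overlap (background 71.6%), and 7 called members had an absolute log2 fold change of 1 or more (background 20.0%). Overlap was judged on CPM without TMM. RASGRP3, BLNK and NFATC3 thus count among the 38 as higher in TACI short, with TMM-scaled log2 fold changes just below 0. The median log2 fold change of the members was 0.12, beside 0.05 over all genes tested. Of the 9 inhibitors, 7 were higher in TACI short and 0 lower, with a median of 0.43. Of these, CSK (log2 fold change 0.11 ± 0.04) lost its call without any 1 control, any 1 TACI long library or TACI short replicate 1 (edgeR adjusted p up to 0.216). INPP5D (0.12 ± 0.04) lost its call without any 1 control or TACI long replicate 1 or 3 (edgeR adjusted p up to 0.243), which leaves PTPN6, PTPN22, CD72, DOK3 and CBL, 5 of 9, as calls that held whichever library was left out. Of 25 tested inhibitory genes of the pathway outside the members, 9 were higher in TACI short and 8 lower, with a median of 0.09. Of the 35 members that are no inhibitors, 16 were higher and 10 lower, with a median of 0.10. Among those, the small differences of BCL10, GRB2, CD81 and PIK3R1 (0.17, 0.13, 0.11 and -0.12) each lost their call when some single libraries were left out. PTPN6 was 2.34-fold higher in TACI short than in TACI long, PTPN22 2.03-fold, CD72 1.60-fold and DOK3 1.38-fold (edgeR adjusted p = 2.07e-07 or lower). PIK3CD was 2.62-fold higher and NFATC2 1.95-fold higher. On the other side, SOS1 was 1.92-fold lower in TACI short than in TACI long, BLK 1.68-fold, CR2 1.59-fold, PIK3AP1 1.49-fold, VAV1 1.29-fold and SYK 1.26-fold. RASGRP3, BLNK, NFATC1 and NFATC3, which each moved the same way against control in both lines, did not pass between them, with log2 fold changes of -0.03 ± 0.04, -0.01 ± 0.05, -0.03 ± 0.05 and -0.01 ± 0.05. With library size alone these 4 were positive and passed, at 0.10, 0.12, 0.10 and 0.12.

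**Figure D3:**
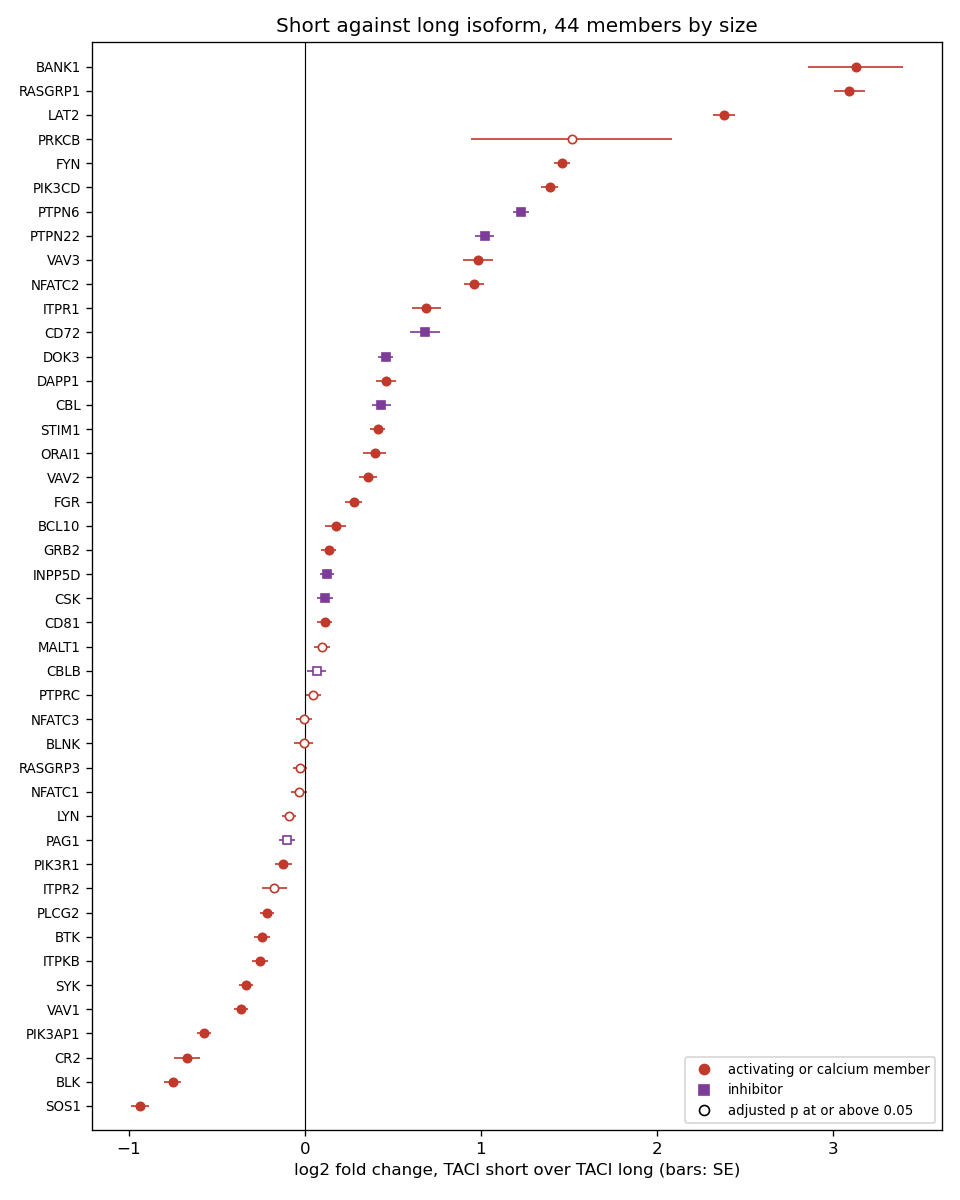
Log2 fold change of TACI short over TACI long (horizontal axis; bars, SE) for the 44 members in order of size, with inhibitors as squares and the other members as circles; open symbols did not pass adjusted p under 0.05. BANK1, RASGRP1 and LAT2 lie at the upper end (3.13, 3.09 and 2.38) and SOS1 at the lower end (-0.94).

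RASGRP1 and PTPN22 were higher in TACI short and lower in TACI long than in controls. Each has a single start in the RefSeq promoter table (GRCh38.p14), 761 bases inside the outermost annotated 5′ end of RASGRP1 and 47 bases inside that of PTPN22. Sequences before these starts are shown as examples from genes that moved in opposite directions. Each run is the longest stretch outside annotated exons within 250 bases before the start, read 5′ to 3′ on the minus strand. The RASGRP1 run is chr15:38564815-38564972 (158 bases) and that of PTPN22 chr1:113871760-113871962 (203 bases). Capitals mark GAGGAA, the core bound by PU.1-type ETS factors, on either strand.
RASGRP1: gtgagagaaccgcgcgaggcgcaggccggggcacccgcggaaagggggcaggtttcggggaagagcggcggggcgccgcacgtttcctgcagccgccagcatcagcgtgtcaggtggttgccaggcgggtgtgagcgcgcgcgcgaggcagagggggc
PTPN22: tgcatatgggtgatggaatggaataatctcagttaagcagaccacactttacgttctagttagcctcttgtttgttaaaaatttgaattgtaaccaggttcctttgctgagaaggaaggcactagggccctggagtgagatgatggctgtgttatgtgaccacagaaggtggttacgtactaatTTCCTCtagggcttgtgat
The RASGRP1 run is 74.1% G or C and the PTPN22 run 42.9%. Over the full 250 bases, GAGGAA was found once in PTPN22, 66 bases before the start, and not in RASGRP1. The NF-kB consensus was in neither window. Among the 36 members with an entry, 24 of 64 start sites had GAGGAA on either strand (37.5%), beside 23.6% of all 35116 start sites in the table, and 5 had the NF-kB consensus (7.81% against 5.21%). A match describes letters only.

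Levels between genes can be compared only per exon length. In TACI short the most abundant members were GRB2 (608 ± 16.9 TPM), CSK (577 ± 22.1), PTPRC (359 ± 3.04) and PTPN6 (357 ± 8.58), with PTPRC and PTPN6 closer than their SDs. In TACI long they were GRB2 (479 ± 11.6 TPM), CSK (461 ± 10.3), PTPRC (300.4 ± 15.5) and SYK (254 ± 9.42). In controls CSK came first (557 ± 11.8 TPM), then GRB2 (427 ± 4.20), PTPN6 (385 ± 12.4) and PTPRC (286 ± 10.7; SD, n = 3 libraries each). PTPN6 thus ranked 4 in TACI short, 9 in TACI long and 3 in controls. Among the Src-family kinases, FYN led in TACI short (93.5 ± 3.04 TPM), BLK in TACI long (110.0 ± 2.66 TPM) and LYN in controls (81.6 ± 1.35 TPM, with BLK next at 74.1 ± 1.82 TPM). BANK1 and PRKCB were the lowest members in every group, at or under 1.42 TPM in each group mean.

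**Figure D4:**
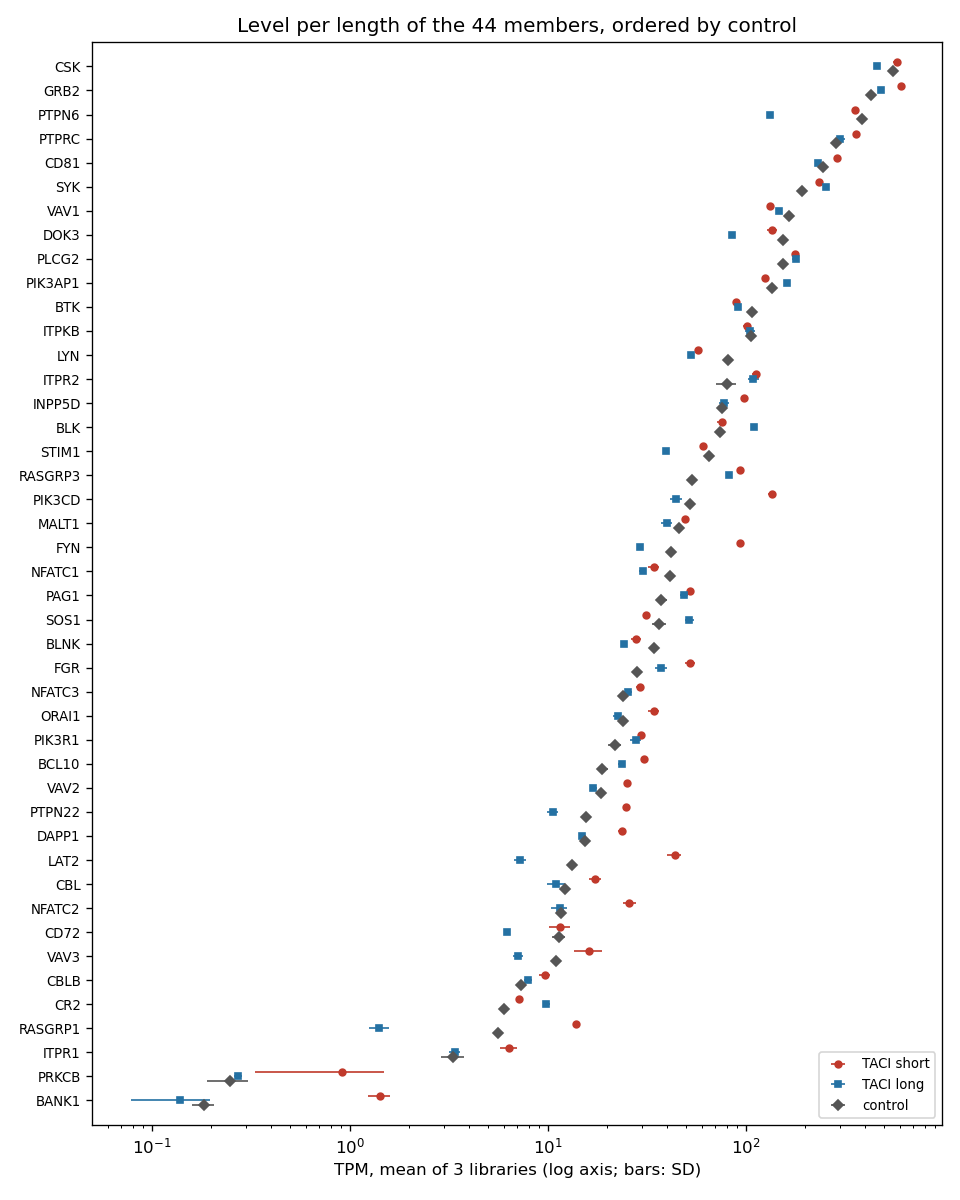
TPM (log axis, mean of 3 libraries; bars, SD) of the 44 members in TACI short (circles), TACI long (squares) and control (diamonds), ordered by the control level. Levels span from 0.184 TPM for BANK1 to 557 TPM for CSK in controls, and PTPN6 in TACI long falls far below its control level.

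Of 91 further genes of the pathway that are no members, 87 passed the filter; IFITM1, LILRB1, UBASH3A and ITPKA did not. In TACI short 35 rose and 27 fell, and in TACI long 29 rose and 26 fell, with medians of 0.07 and 0.03. These counts and those of the smaller lists below stand beside 62.6% of all genes tested that passed in TACI short (31.5% higher, 31.1% lower) and 51.1% in TACI long (25.2% higher, 25.9% lower). CD79A, a signalling chain of the receptor, fell 1.42-fold in TACI short. CD40, the costimulatory receptor, rose 3.26-fold in TACI short. CD79B, the other signalling chain, averaged 1215 ± 18.0 CPM in TACI long and 720.4 ± 23.8 CPM in controls (1.69-fold higher), and the inhibitory co-receptor CD22 330.4 ± 6.88 and 813 ± 12.3 CPM (2.46-fold lower; SD, n = 3 each).

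Other inhibitory genes had 14 of 25 higher and 4 lower in TACI short and 7 higher and 5 lower in TACI long. CD5, an inhibitory surface receptor, had 9.07, 8.78 and 7.95 CPM in TACI short and 38.4, 42.6 and 40.9 CPM in TACI long, against 0.457, 0.436 and 0.386 CPM in controls. CD5 rose by 4.20 on the log2 scale in TACI short and by 6.57 in TACI long. The Src-like adaptors SLA and SLA2, which lower antigen receptor levels in lymphocytes, rose 1.69-fold and 2.56-fold in TACI long, and the adaptor SH2B3 was 3.01-fold higher in TACI short than in TACI long. LAIR1, an inhibitory receptor also found on myeloid cells, had 1.53, 7.74 and 7.51 CPM in TACI short and 1.25, 1.16 and 0.881 CPM in TACI long, against 0.739, 1.31 and 1.24 CPM in controls. Its rise in TACI short rested on replicates 2 and 3 and had a log2 fold change of 0.39 without them (edgeR adjusted p = 0.270).

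Among the other activating genes, 13 of 42 rose and 16 fell in TACI short, and 15 rose and 12 fell in TACI long. The kinase TEC, a relative of BTK, averaged 25.3 ± 1.13 CPM in TACI short, 7.72 ± 0.211 CPM in TACI long and 23.8 ± 0.324 CPM in controls (SD, n = 3 each), so it was 3.08-fold lower in TACI long than in controls and 3.00-fold higher in TACI short than in TACI long. SH3BP2, an adaptor that binds SYK and VAV proteins, fell 1.80-fold in TACI long, and HRAS fell 1.56-fold in TACI short. Calcium and NFAT genes outside the members had 6 of 13 higher and 3 lower in TACI short and 4 higher and 6 lower in TACI long. NFATC4 rose 2.92-fold and ITPR3 fell 1.45-fold in TACI short, and PPP3CC, a calcineurin subunit, fell 2.21-fold in TACI long.

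Within TACI short, the members other than PRKCB varied less between replicates than the myeloid markers did. The mean of replicates 2 and 3 over replicate 1 was 5.01 for PRKCB, 1.33 for VAV3, 1.26 for BANK1 and 1.16 for LAT2, and between 0.907 and 1.11 for the other 40 members. TYROBP, a myeloid adaptor, had 0.968 CPM in replicate 1 and 12.4 and 10.7 CPM in replicates 2 and 3. CSF1R, the macrophage growth factor receptor, had 20.3 CPM in replicate 1, 57.8 and 56.7 CPM in replicates 2 and 3, and at most 11.4 CPM in TACI long and 8.72 CPM in controls. With replicates 2 and 3 left out, 24 members were higher and 11 lower in TACI short than in controls, where 51.9% of the genes tested in that fit passed. In that fit the log2 fold changes of PIK3CD, RASGRP1, FYN and NFATC2 were 1.27, 1.24, 1.06 and 1.04, the single TACI short library being assumed to vary like the other groups.

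**Figure D5:**
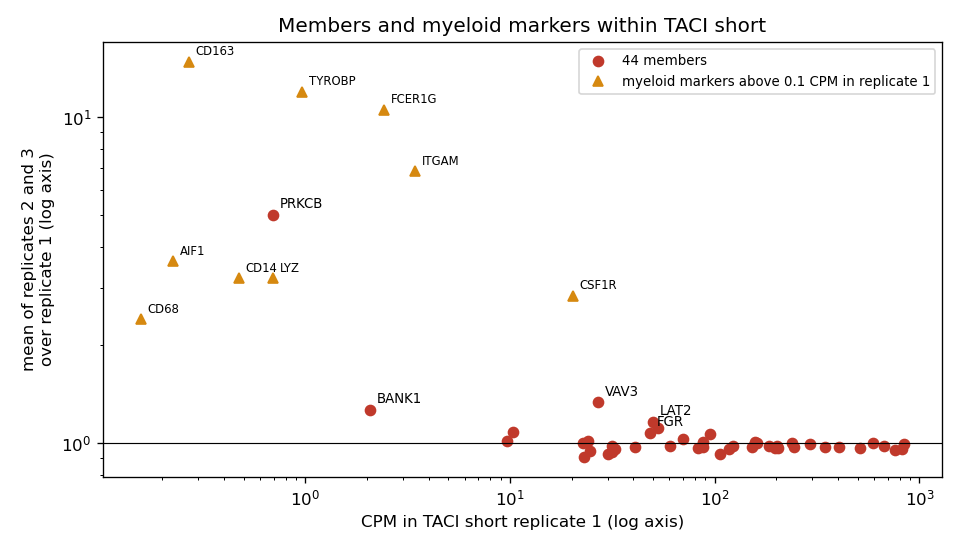
Ratio of the mean of TACI short replicates 2 and 3 to replicate 1 (vertical log axis) against CPM in replicate 1 (horizontal log axis) for the 44 members (circles) and 9 myeloid markers above 0.1 CPM in replicate 1 (triangles). PRKCB lies at 5.01 among the markers, and all members but PRKCB lie at or under 1.33.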

How the data were processed

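The deposited values are raw counts per Ensembl gene, made by the authors and not normalized. Per the submitters' processing notes, FastQC, STAR 2.4.0h, HTSeq and build hg38 were used, while the columns per the file headers have the featureCounts layout; the annotation release, strand setting and filters are not given in the sources used here. Per the labels' protocols, polyadenylated RNA of sorted cells was made into Nextera XT libraries, which do not mark strand, so reads of overlapping antisense genes cannot be told apart (17 members share exon bases with another gene). Of 57500 genes, 56898 are in GENCODE 29, the source of symbols.

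The members and lists were chosen with earlier results of these data known. Genes were kept by filterByExpr (minimum count 10, minimum total 15; 16672 genes), and scaled by TMM. A single model of the 9 libraries, with 6 residual degrees of freedom, was tested by edgeR's quasi-likelihood method (version 4.0.16, robust, R 4.3.3), with Benjamini-Hochberg adjustment over all genes. The same fit was tested on simulated data. The SE is the absolute log2 fold change over the square root of the F statistic. CPM is count over column total; TPM uses the deposited exon lengths. Members called without overlap are given per library, up to 10 rises and 10 falls per comparison, and other pathway genes by up to 4 each way, of which 1 is not reported here. Alternatives were DESeq2 1.42.0, limma 3.58.1 voom, other scalings, filters, a fold minimum, the groups compared alone, a replicate block and left-out libraries. Labels number the replicates 1 to 3 without saying what a number shares. Deviations from group means correlated at 0.177 to 0.434 in the 3 same-numbered TACI short and control pairs. Other pairs of these groups ran from -0.389 to 0.232, and those between replicates 2 and 3 stood at 0.194 and 0.232. The values thus do not show pairing by number. The blocked fit of TACI short against control changed no member call. No replicates were copies (chi-square per degree of freedom 2.45 to 18.2). Figures used matplotlib 3.10.9.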

Additional observations from a re-analysis of the deposited data

How the results depend on the processing

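Of 132 member results (44 members in 3 comparisons), 96 kept their direction and their side of the threshold under every alternative that gave a value. Of 2505 values in all, 104 lost a call, 52 gained one and 7 changed sign. Outside PRKCB, VAV3 and ITPR2, every result with such a change had an absolute log2 fold change of 0.17 or less. The changes of sign were PRKCB in TACI short against control without TACI short replicates 2 and 3 (-0.12) and, with library size alone, CSK in TACI short against control (0.0143) and PIK3R1 (0.00742), RASGRP3 (0.10), BLNK (0.12), NFATC1 (0.10) and NFATC3 (0.12) in TACI short against TACI long. Library size alone omits TMM, and TACI short stood higher under it. It put 64.5% instead of 50.4% of called genes higher against control, and 62.3% instead of 51.2% against TACI long. Upper-quartile factors also lifted TACI short, with shares of 59.3% and 58.8%. DESeq2 size factors did not, with median log2 shifts of -0.003 and -0.012 from TMM in the same order. With upper-quartile factors, BLK and CSK lost their call in TACI short against control, and PLCG2, CD81 and CR2 gained one. Between the lines PIK3R1 lost its call, and PRKCB, MALT1, PTPRC and CBLB gained one. Asking for an absolute log2 fold change of at least 1 left 5 members higher and 0 lower in TACI short against control (2408 genes in all), 0 and 2 in TACI long (1520 genes), and 7 and 0 between the lines (3330 genes). With each library left out in turn, the members called higher and lower ranged over 22 to 25 and 11 to 14 in TACI short, 13 to 16 and 15 to 17 in TACI long, and 18 to 24 and 9 to 12 between the lines. Same-numbered pairs that include a TACI long library had correlations of deviations of -0.272 to 0.113. With the replicate number as a block, 26 members were higher and 13 lower in TACI short, 16 and 17 in TACI long, and 25 and 12 between the lines, where LYN, PRKCB, MALT1 and PAG1 gained a call; the block changed no other member call. TNFRSF13B kept its direction and call throughout. BANK1 and PRKCB were the members under 1 CPM in every control, where counting error is largest.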
